A study of Homo sapiens with 6 samples.

Results

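The oncofetal and progenitor markers of hepatocellular carcinoma (HCC) described here are a panel of 10 genes of the 38637 in the deposited table. They are AFP, GPC3, IGF2, EPCAM, PROM1, CD44, SOX9, KRT19, KRT7 and SPP1. The genes were picked by name and no measured value was part of the rule, but earlier results of these data were known. All 10 were found in the table. They were measured by PolyA-Seq, the sequencing of polyadenylated RNA, in HCCLM3-SR, a sorafenib-resistant human line derived from the HCC line HCCLM3. In 3 libraries the cells had been transfected with si-cDCBLD2, an siRNA against the circular RNA cDCBLD2 (knockdown), and in the other 3 with siCTRL (control), for 3 days, and all 6 libraries came from cells given sorafenib, a multikinase inhibitor, at 5 μM. No library came from cells without siRNA, without sorafenib, or from a second cell line, and the labels do not say whether replicates were separate cultures, so p-values measure the spread between these libraries, which may be technical.

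Oncofetal genes are active in the fetal liver, are shut down in the adult organ and can be switched on again in HCC. AFP (alpha-fetoprotein, the fetal relative of albumin and a serum marker of HCC), GPC3 (glypican-3, a heparan sulfate proteoglycan of the cell surface) and IGF2 (insulin-like growth factor 2, an imprinted fetal growth factor) stand for them. EPCAM, PROM1 (CD133) and CD44 (the hyaluronan receptor) are surface proteins used to sort stem-like HCC cells, and SOX9, KRT19, KRT7 and SPP1 (osteopontin) mark the biliary and bipotent progenitor side of the liver. HCC cells that carry such markers are known for poor differentiation and drug resistance, which is the setting of a sorafenib-resistant line.

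The study concerned cDCBLD2 as a sponge of the microRNA miR-345-5p, so the mature microRNA (RefSeq, GRCh38.p14, chr14:100307876-100307897, plus strand) is shown with its seed, bases 2 to 8, in capitals, followed by the stretches of 2 members in which the complement of that seed, GAGTCAG, was found, also in capitals.
hsa-miR-345-5p: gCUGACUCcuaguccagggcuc
AFP coding sequence: actgttactaaactGAGTCAGa
SPP1 coding sequence: gacagttatgaaacGAGTCAGc
The AFP stretch lies at chr4:73444994-73445015 on the plus strand, in exon 7 of 14 of transcript ENST00000226359.2, and the SPP1 stretch at chr4:87982618-87982639 on the plus strand, in exon 7 of 7 of ENST00000395080.7 (GRCh38, GENCODE release 29). Both are in coding sequence. In 1 transcript per member, the one with the longest coding sequence, the letters were absent from the 3′ UTR in all 10 members and from the coding sequence in the other 8. Other transcripts and 5′ UTRs were not searched, and the 3′ UTRs searched were short in most members. They held 29 bases in AFP, 126 in KRT19, 161 in KRT7, 287 in EPCAM, 370 in GPC3, 401 in SPP1 and 487 in IGF2. Across the 19248 protein-coding genes matched, 12.3% held GAGTCAG in the longest coding sequence and 8.2% in the 3′ UTR. A match of letters is a description and not a binding site.

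The values deposited were TPM, a read count per unit of transcript length scaled to a total of 1000000 in each library, so levels of different genes are compared per length. Whole reads were recovered from the ratios of the values, between 17492673 and 23064302 reads per library. Deviations from the group means were correlated across genes between libraries that shared a replicate number (mean r = 0.4216, against -0.1929 between different numbers). Deviations cancel out within a group, so the negative value follows from the positive one and is no separate evidence of pairing. Replicate 1 stood apart in both groups. Each test was therefore run without a block and with the replicate number as a block (below, unblocked and blocked). DCBLD2, the host gene of cDCBLD2, lay between 25.9 and 58.1 TPM in the knockdown libraries. In the control libraries it lay between 48.5 and 71.5 TPM. Knockdown over control was 0.814, 0.533 and 0.623 in the pairs of like replicate number. The log2 fold change of TPM + 1 was -0.61 (limma adjusted p = 0.253 unblocked and 0.0139 blocked). With the block and the GC-content offset described below it was -0.28 (limma adjusted p = 0.0513). These DCBLD2 values do not separate the circular RNA from the linear mRNA. Of the hepatocyte markers, ALB (albumin) lay between 0.189 and 1.58 TPM in groups that overlapped. TTR (transthyretin) was between 0.202 and 0.241 TPM in control cells and higher in every knockdown library, up to 1.64 TPM. APOB (apolipoprotein B) went the other way, lower in every knockdown library, at 0.902 to 2.71 TPM against 2.72 to 4.26 TPM. The groups also overlapped in APOA1, SERPINA1 and TF, of the same list. HNF4A, the hepatocyte nuclear receptor, lay between 22.9 and 31.3 TPM and was higher in every knockdown library. CFTR, a cholangiocyte marker outside the panel, was at 0 in every library. The leukocyte genes CD3E and MS4A1 were at 0 and PTPRC stayed under 0.412 TPM, although CD68 lay between 90.0 and 125 TPM and LYZ between 2.85 and 5.81 TPM. Of the endothelial genes, PECAM1 lay between 3.63 and 5.64 TPM, and VWF, CDH5 and KDR stayed under 0.111 TPM. The summed level of 6 fibroblast markers, carried mainly by LUM, was between 32.3 and 76.9 TPM in the knockdown libraries and between 30.1 and 43.8 TPM in the control libraries, and COL1A2 was seen in knockdown replicate 1 alone, at 2.67 TPM. Both other collagens of the list were higher in every knockdown library, COL1A1 at 3.61 to 11.2 TPM against 1.13 to 3.35 TPM (limma adjusted p = 0.196 unblocked and 0.0132 blocked) and COL3A1 at 1.78 to 3.36 TPM against 0.476 to 0.783 TPM (limma adjusted p = 0.0635 unblocked and 0.0079 blocked). The part of these other-cell genes in the results was not tested.

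The panel ranged from undetected to abundant in these cells, but did not reach the most abundant genes. SPP1 was the most abundant member, with a mean of 262 TPM over the 6 libraries and rank 573 among all genes. CD44 followed at 78.2 TPM, rank 2114. The lowest SPP1 library, at 187 TPM, lay above the highest CD44 library, at 81.8 TPM. KRT7 and SOX9 came next, at 9.15 and 9.14 TPM, and did not differ beyond their spread, since their libraries ranged over 5.42 to 14.3 TPM and 7.50 to 11.9 TPM. IGF2 was at 3.15 TPM, with no library above 4.09 TPM. KRT19, at 1.42 TPM, and AFP, at 1.25 TPM, overlapped in their ranges, 0.806 to 1.91 TPM and 0.926 to 2.08 TPM. EPCAM was at 0.164 TPM, GPC3 at 0.0419 TPM, and PROM1 was at 0 in all 6 libraries. The 2 members with the highest level are thus a ligand and its receptor, since osteopontin binds CD44.

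**Figure D1:**
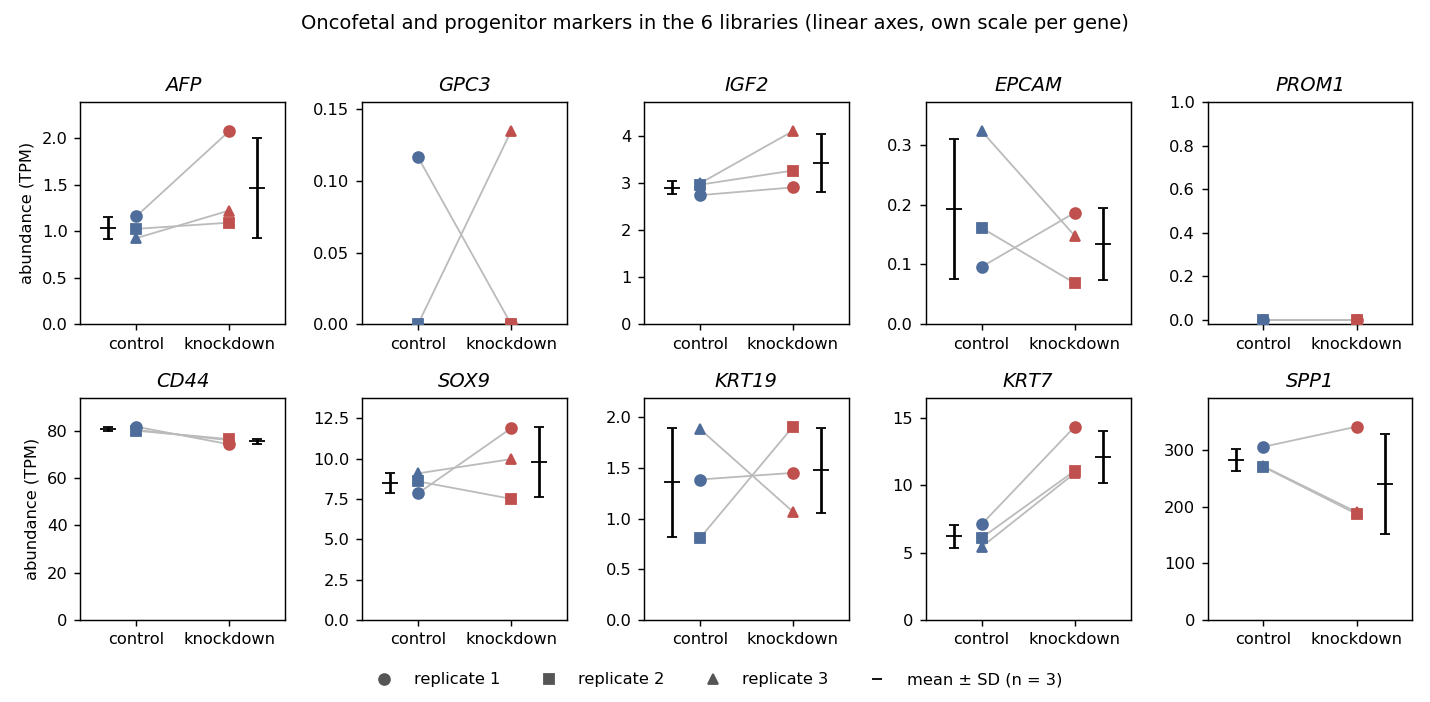
Abundance of the 10 markers in TPM, 1 panel per gene with its own linear axis. Blue points are control and red points knockdown libraries, circles, squares and triangles are replicates 1, 2 and 3, grey lines join the same replicate number, and black bars give the mean ± SD (n = 3), left out for GPC3 and PROM1. KRT7 and CD44 are the 2 genes whose groups do not overlap, KRT7 between 10.9 and 14.3 TPM after knockdown and between 5.42 and 7.10 TPM in control cells.

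After cDCBLD2 knockdown KRT7 was about 1.95 times its control level, the largest change of the panel, and no other member changed by as much. Of the 10 members, 7 had a mean of at least 1 TPM and were tested with the 13980 genes that passed this filter, and GPC3, EPCAM and PROM1 did not pass it. At an adjusted p under 0.05, limma's moderated test on log2(TPM + 1) called 0 of the 7 members without the block, where it called 0.880% of all genes tested (0.250% higher and 0.629% lower, 123 genes in all) and 3654 genes had an unadjusted p under 0.05. The blocked fit called 1 of the 7, KRT7, which was higher, where it called 35.0% of all genes, 9.94% higher and 25.0% lower. In 2 of the 7 members the 3 knockdown libraries did not overlap the 3 control libraries, KRT7 higher and CD44 lower, as in 31.9% of all genes tested (9.58% higher and 22.3% lower). The median log2 fold change of all genes tested was -0.08.

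KRT7, a type II keratin of bile duct and other simple epithelia (ENSG00000135480.15, chr12:52232520-52252186, plus strand), was at 14.3, 11.1 and 10.9 TPM in knockdown replicates 1 to 3 and at 7.10, 6.09 and 5.42 TPM in control replicates 1 to 3. Every knockdown library lay above every control library. The means were 12.1 ± 1.94 TPM (SD, n = 3) and 6.20 ± 0.845 TPM (SD, n = 3), from between 277 and 303 recovered reads per knockdown library and between 126 and 142 per control library. A two-sided exact permutation test gave p = 0.1, the smallest possible in a design of 3 libraries against 3. On the log2(TPM + 1) scale KRT7 changed by 0.86 (standard error, SE, 0.148, 95% interval 0.51 to 1.22, limma adjusted p = 0.0544), more than 99.0% of the genes tested. The ratio of knockdown to control was 2.02, 1.82 and 2.01 in replicates 1, 2 and 3, and the blocked fit gave SE 0.0797 and a limma adjusted p of 0.0045. KRT7 thus rose in the blocked fit and just missed the threshold in the unblocked one. It passed the threshold in 9 of 18 alternatives, and its log2 fold change lay between 0.72 and 1.06 in all of them. Without knockdown replicate 1, its highest library, KRT7 changed by 0.74 (limma adjusted p = 0.0182). The antisense gene KRT7-AS (chr12:52245048-52247448) lies within KRT7 and was at between 0.733 and 2.04 TPM, from 10 to 24 reads per library, and KRT86 overlaps its end on the same strand at between 0.541 and 0.801 TPM. The strand and multimapping settings are not given in the sources used here, so reads of these overlaps cannot be told apart.

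KRT19, the type I keratin that marks bile ducts and HCC of progenitor phenotype (chr17:41523617-41528308, minus strand), had groups that overlapped. Its level was 1.45, 1.91 and 1.07 TPM in the knockdown replicates and 1.39, 0.806 and 1.89 TPM in the control replicates, from only 9 to 25 reads per library. High and low libraries occurred in both groups. The means of 1.48 ± 0.421 and 1.36 ± 0.540 TPM (SD, n = 3 each) differed by less than either SD. The log2 fold change was 0.08 with a 95% interval of -0.46 to 0.62 (limma adjusted p = 0.841). This interval does not include the 0.86 of KRT7 on the same scale. With a pseudocount of 0.1 the interval was -0.76 to 1.05, which includes the 0.95 of KRT7 on that scale. Whether a change as large as that of KRT7 lay within the interval thus turned with the pseudocount. The sign of KRT19 turned with the GC-content offset described below (-0.05), without knockdown replicate 2 (-0.04) and without control replicate 2 (-0.10).

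SOX9, the transcription factor of biliary and progenitor cells (chr17:72121020-72126420, plus strand), was at 11.9, 7.50 and 9.97 TPM after knockdown and at 7.84, 8.59 and 9.08 TPM in control cells. Knockdown replicates 1 and 3 were its highest libraries and knockdown replicate 2 was its lowest, so the groups overlapped. The log2 fold change was 0.16 (SE 0.167, limma adjusted p = 0.562 unblocked and 0.418 blocked). Knockdown replicate 1 carried most of it. Without both libraries of replicate 1, an alternative chosen after seeing that they stood apart, it was -0.03 (limma adjusted p = 0.901).

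SPP1, which encodes the secreted phosphoprotein osteopontin, a ligand of CD44 and of integrins (chr4:87975650-87983426, plus strand), was at 342, 187 and 191 TPM after knockdown and at 307, 271 and 272 TPM in control cells. Knockdown replicates 2 and 3 were the lowest libraries and knockdown replicate 1 was the highest of the 6. Within pairs the ratio was 1.12 for replicate 1, and 0.692 and 0.702 for replicates 2 and 3. The means were 240 ± 88.3 and 283 ± 20.3 TPM (SD, n = 3 each; two-sided exact permutation test, p = 0.4), and the log2 fold change was -0.29 (SE 0.233, limma adjusted p = 0.454 unblocked and 0.161 blocked). The value rests on knockdown replicate 1. Without that library SPP1 was at -0.58 (limma adjusted p = 0.0137), and without both libraries of replicate 1 it was -0.52 (limma adjusted p = 0.0049). Between 2924 and 4153 reads stood behind each library.

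**Figure D2:**
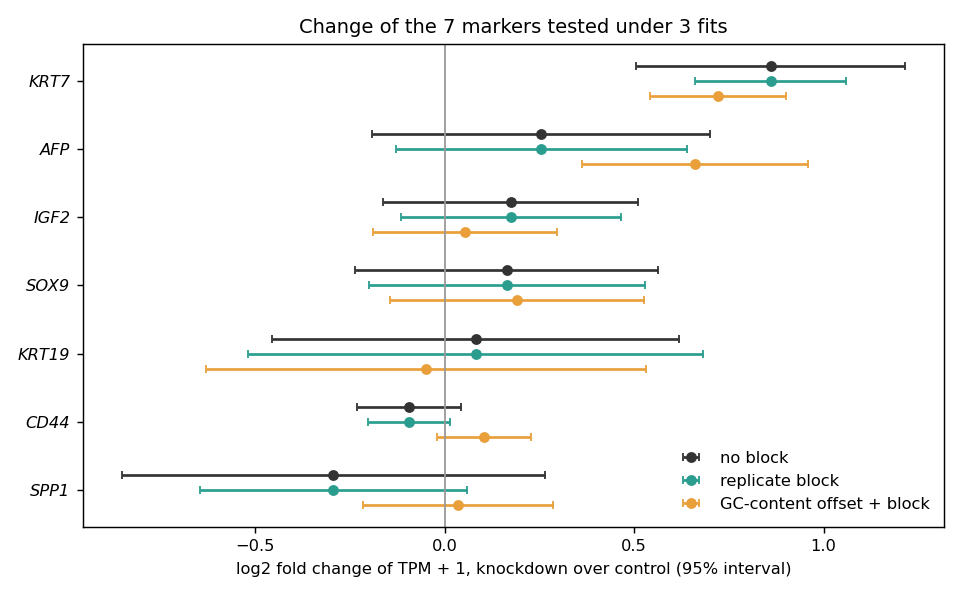
Log2 fold change of TPM + 1, knockdown over control, of the 7 markers tested (x axis), with 95% intervals from limma. Black points are the fit without a block, green the fit with the replicate block and orange the GC-content offset with the block. KRT7 lies to the right of 0 in all 3 fits, at 0.86, 0.86 and 0.72, AFP does so in the third alone, at 0.66, and the intervals of the other 5 genes include 0 in each.

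CD44, the hyaluronan receptor used to sort stem-like HCC cells (chr11:35138870-35232402, plus strand), was at 74.4, 76.6 and 76.1 TPM after knockdown and at 81.8, 80.1 and 80.5 TPM in control cells. The 3 knockdown libraries all lay below the lowest control library, and the spread within groups was small, with means of 75.7 ± 1.16 and 80.8 ± 0.901 TPM (SD, n = 3 each). The exact permutation test gave p = 0.1, the smallest possible, as 22.3% of all genes tested were lower in every knockdown library. The log2 fold change of -0.09 (SE 0.0569) did not pass the test (limma adjusted p = 0.337 unblocked and 0.150 blocked), and was close to the median of all genes, -0.08. Scaling the libraries by trimmed means moved the median of all genes to 0.01 and turned CD44 to 0.01, and upper-quartile scaling also gave 0.01. The direction of CD44 thus turned with the scaling. Values per gene do not separate the standard from the variant isoforms of CD44.

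EPCAM (chr2:47345158-47387601, plus strand), the epithelial adhesion molecule of fetal hepatoblasts and stem-like HCC, had 2, 1 and 2 recovered reads in the knockdown replicates and 1, 2 and 4 in the control replicates. These are 0.186, 0.0686 and 0.148 TPM against 0.0958, 0.161 and 0.323 TPM (two-sided exact permutation test, p = 0.5). The groups overlapped, and the counts allow no comparison. PROM1 (chr4:15963076-16084378, minus strand), the membrane protein CD133, had 0 reads in each of the 6 libraries, which allows a level of up to between 0.0489 and 0.0683 TPM per library (3 reads, counting error only). Of the 3 surface markers of the panel, CD44 alone was thus expressed at more than a few reads.

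AFP (ENSG00000081051.7, chr4:73431138-73456174, plus strand) was barely expressed, at 2.08, 1.09 and 1.22 TPM after knockdown and at 1.16, 1.03 and 0.926 TPM in control cells. The recovered reads were 35, 25 and 26 in the knockdown replicates and 19, 20 and 18 in the control replicates. Knockdown replicate 1 was the highest library and knockdown replicate 2 lay below control replicate 1. The means were 1.47 ± 0.536 and 1.04 ± 0.118 TPM (SD, n = 3 each; two-sided exact permutation test, p = 0.2). The log2 fold change was 0.26 on the log2(TPM + 1) scale (SE 0.186, limma adjusted p = 0.416 unblocked and 0.245 blocked), a scale that understates the change of so low a gene. AFP was higher in 3 of 3 pairs, by 1.79, 1.07 and 1.32 times. With the GC-content offset it was at 0.66 (limma adjusted p = 0.069 unblocked and 0.0174 blocked). In that blocked fit 2 of the 7 members, KRT7 and AFP, thus passed, where 24.5% of all genes did, 11.4% higher and 13.1% lower. The offset takes the same GC trend from genes of every level, and whether that trend suits so low a gene was not tested. With a pseudocount of 0.1 and no offset AFP was at 0.41 (limma adjusted p = 0.433 unblocked).

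**Figure D3:**
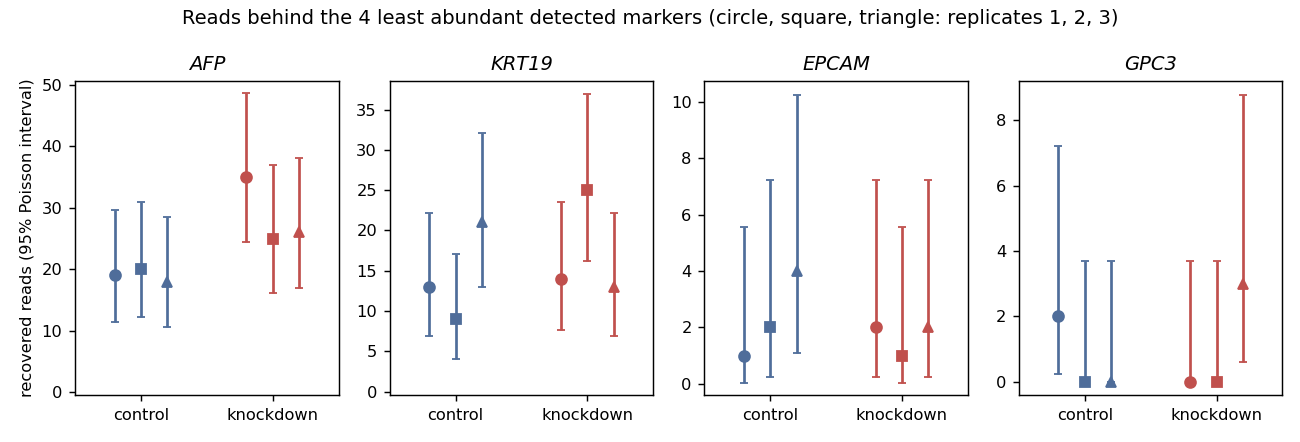
Recovered reads of AFP, KRT19, EPCAM and GPC3 per library on linear axes, blue for control and red for knockdown, with circles, squares and triangles for replicates 1, 2 and 3. Bars are exact 95% Poisson intervals, which cover counting error only. EPCAM stays between 1 and 4 reads, GPC3 between 0 and 3, and the intervals of AFP and KRT19 overlap between the groups.

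GPC3 (chrX:133535745-133985895, minus strand), the glypican that is a marker and a drug target of HCC, was seen in knockdown replicate 3 with 3 reads and in control replicate 1 with 2 reads, and was at 0 in the other 4 libraries. The corresponding levels were 0.135 and 0.117 TPM. IGF2 (chr11:2129112-2149603, minus strand) was at 2.90, 3.26 and 4.09 TPM after knockdown and at 2.74, 2.96 and 2.98 TPM in control cells, and was higher in 3 of 3 pairs, by 1.06, 1.10 and 1.37 times. The groups overlapped at knockdown replicate 1, and the log2 fold change was 0.17 (SE 0.14, limma adjusted p = 0.460 unblocked and 0.288 blocked). The readthrough gene INS-IGF2 shares the strand and exons of IGF2 and had nearly the same numbers of recovered reads, 119 to 230 per library against 122 to 237, so the level of IGF2 itself is uncertain.

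The members lie at both ends of the GC scale, which bears on every value above. Across 13163 genes with a transcript in GENCODE release 29, the log2 fold change rose with the GC content of the longest transcript (Spearman's rho 0.635, genes not being independent replicates), with medians of -0.39, -0.25, -0.08, 0.04 and 0.11 in 5 equal groups of genes from the lowest to the highest GC content. AFP is AT-rich, with 38.8% GC, and its log2 fold change was above that of 98.0% of the genes in its own group by GC content. KRT7, with 62.9% GC, was also above 98.0% of its group. SOX9, with 51.0% GC, was above 87.5%, CD44, with 45.3%, above 74.3%, and IGF2, with 60.4%, above 63.0%. KRT19 and SPP1 were near the middle of theirs, above 44.7% and 43.0%. When the trend with GC content was removed from each library, KRT7 moved from 0.86 to 0.72, SPP1 from -0.29 to 0.04 and CD44 from -0.09 to 0.10, none of the 3 past the threshold without the block. KRT7 passed it with the block (limma adjusted p = 0.0057), and SPP1 and CD44 did not (0.818 and 0.175).

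**Figure D4:**
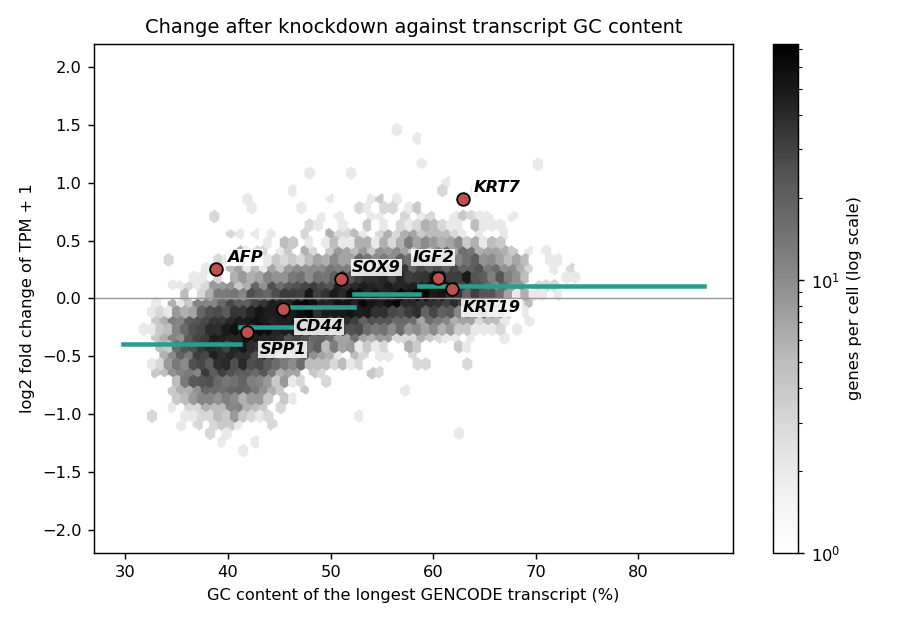
Log2 fold change of TPM + 1 (y axis, drawn from -2.2 to 2.2, which leaves out 6 genes) against the GC content of the longest transcript in percent (x axis). Grey cells count genes on a log scale, green bars are the medians of the 5 equal groups of genes by GC content, and red points are the 7 markers tested. The medians climb from -0.39 to 0.11, AFP lies far above the genes of like GC content at 38.8%, and SPP1 and KRT19 lie close to theirs.

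Patterns most like those of the members were found among all genes tested by Pearson's r on log2(TPM + 1) over the 6 libraries, which share the treatment and the replicate effect. KRT7 was closest to BAK1 (r = 0.998) and LAGE3 (0.995), AFP to MIR99AHG (0.995) and RNF149 (0.994), and CD44 to FASN and SETD3 (0.998 each). SPP1 was closest to EIF5A2 and LOC102724146 (0.998 each), SOX9 to C1RL-AS1 and ABLIM3 (0.985 each), and KRT19 to LINC01271 (0.989) and HOXC9 (0.984). IGF2 was closest to INS-IGF2 (0.999), which had nearly the same numbers of reads, and then to GRIPAP1 (0.992). These are the highest values among 13980 genes over 6 libraries and are given as a description.

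The wider families of the members were read from 7 lists of 123 genes, of which 88 were tested. Without the block 0 of them were higher and 1 was lower, and with the replicate block 29 were higher and 16 lower. The background was 9.94% higher and 25.0% lower with the block, and 0.250% and 0.629% without it. The lists were chosen with earlier results of these data known, so their counts are a description.

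Of the biliary progenitor genes outside the panel, 14 were tested, and in the blocked fit 8 of them rose, like KRT7, and 0 fell. The median log2 fold change was 0.27 against -0.08 for all genes, and 0 passed in the unblocked fit. KRT8 and KRT18, the keratins shared by hepatocytes and bile ducts, were among them, with log2 fold changes of 0.32 and 0.26. MMP7, a matrix metalloprotease of injured bile ducts, was at 30.7 to 59.0 TPM after knockdown and 21.8 to 31.9 TPM in control cells (log2 fold change 0.58, limma adjusted p = 0.230 unblocked and 0.0124 blocked). JAG1, the Notch ligand of bile duct formation, was at 106 to 152 TPM against 75.1 to 86.9 TPM, with groups that did not overlap (log2 fold change 0.57, limma adjusted p = 0.0945 unblocked and 0.0082 blocked). CLDN7, a tight junction protein, was at 18.7 to 48.4 TPM against 13.7 to 32.3 TPM, with overlapping groups (log2 fold change 0.47, limma adjusted p = 0.524 unblocked and 0.0066 blocked). ITGB4, SLC4A2 and CLDN4 also rose in the blocked fit. With the GC-content offset and the block 8 of the 14 were higher and 0 lower, but they were not the same genes, since CLDN4 (0.13, limma adjusted p = 0.155) was no longer called and ANXA4, at -0.11 without the offset, was called at 0.29 (limma adjusted p = 0.0330). MMP7 was at 0.93 in that fit.

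The partners of IGF2 showed a like count, with 8 of 12 tested genes higher and 0 lower with the replicate block, 0 and 0 without it, and a median of 0.28. With the GC-content offset and the block 8 were higher and 1 lower, IRS2, an adaptor of the IGF and insulin receptors (-0.51, limma adjusted p = 0.0287). IGFBP3, the main carrier of IGFs in blood, was at 1.73 to 3.47 TPM after knockdown and 0.507 to 0.947 TPM in control cells, from 43 to 80 and from 9 to 20 reads (log2 fold change 1.14, limma adjusted p = 0.0655 unblocked and 0.0179 blocked). IGFBP5 was at 3.19, 12.1 and 17.9 TPM against 1.43, 4.53 and 6.78 TPM, a spread between replicate numbers larger than that between the groups (log2 fold change 1.10, limma adjusted p = 0.324 unblocked and 0.0059 blocked). IGFBP1, made by hepatocytes, had a log2 fold change of 0.59 (limma adjusted p = 0.140 unblocked and 0.0152 blocked). These genes encode binding proteins of IGF2. IGF1R, the signalling receptor, had a log2 fold change of 0.01 and did not pass either fit.

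The other oncofetal genes did not share a direction. With the replicate block 3 of 13 rose and 4 fell, with a median of -0.11, and without it 0 did either. H19, the imprinted noncoding RNA beside IGF2, was at 192, 514 and 826 TPM after knockdown and at 69.5, 167 and 251 TPM in control cells. Its libraries overlapped between the groups, yet within pairs it was 2.77, 3.07 and 3.29 times higher (log2 fold change 1.59, limma adjusted p = 0.181 unblocked and 0.0013 blocked), whereas IGF2 was at most 1.37 times higher. DKK1, a secreted Wnt inhibitor and serum marker of HCC, was at 126, 32.9 and 39.1 TPM against 41.8, 23.0 and 20.5 TPM, with knockdown replicate 1 far above the rest (log2 fold change 0.99, limma adjusted p = 0.283 unblocked and 0.0164 blocked). MDK (midkine), a growth factor of the fetal liver, rose by 0.21 in the blocked fit. PEG10, an imprinted gene derived from a retrotransposon, was at 26.8 to 35.4 TPM against 50.9 to 73.1 TPM, without overlap (log2 fold change -0.92, limma adjusted p = 0.0545 unblocked and 0.0044 blocked). IGF2BP3 and IGF2BP2, RNA-binding proteins that bind IGF2 mRNA, had log2 fold changes of -0.55 and -0.37 (limma adjusted p = 0.0748 and 0.0842 unblocked, and 0.0111 and 0.0088 blocked). With the GC-content offset and the block, 2 of these 13 genes were higher, H19 and DKK1, and 2 lower, PEG10 and IGF2BP2 (-0.29), while IGF2BP3 was at -0.18 and MDK at 0.08 (limma adjusted p = 0.0644 and 0.141).

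Among 13 other stem-like markers, 2 rose and 4 fell with the replicate block, none did without it, and the median was -0.03. ICAM1 (log2 fold change 0.27) and ANPEP (CD13, 0.20) were higher, and BMI1, a Polycomb protein of self-renewal (-0.59), the drug efflux pump ABCG2 (-0.49) and the adhesion molecule ALCAM (-0.42) were the most lowered. Their limma adjusted p lay between 0.118 and 0.462 without the block and between 0.0086 and 0.0418 with it. With the GC-content offset and the block none of these 3 lowered genes was called, with BMI1 at -0.19, ABCG2 at -0.14 and ALCAM at -0.03 (limma adjusted p = 0.114, 0.132 and 0.749), and ANPEP was at 0.10 (limma adjusted p = 0.176). That fit called 2 genes higher, ICAM1 (0.19) and ALDH1A1 (0.38), and 1 lower, the pluripotency factor SOX2 (-0.28).

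Of 12 tested ligands, receptors and partners of CD44 and SPP1, 1 was lower without the block, and 1 was higher and 5 were lower with it, with a median of -0.08. PTK2 (focal adhesion kinase) was the gene called in both fits, at 28.3 to 29.8 TPM after knockdown and 40.6 to 42.0 TPM in control cells (log2 fold change -0.48, limma adjusted p = 0.0451 unblocked and 0.0058 blocked), although 9 of its 18 alternatives took it above 0.05. ITGA5, the fibronectin receptor subunit, was at 116 to 197 TPM against 73.6 to 103 TPM, without overlap (log2 fold change 0.77, limma adjusted p = 0.0949 unblocked and 0.0044 blocked). HAS2, which makes the CD44 ligand hyaluronan, and RDX (radixin), which ties CD44 to actin, were lower in the blocked fit, by -0.53 and -0.46 (limma adjusted p = 0.0207 and 0.0087), and their values with the GC-content offset were -0.11 and -0.05. PTK2 was at -0.25 with the offset and the block (limma adjusted p = 0.0199).

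The list of proteases and signal partners that process EPCAM and CD44 was divided, with 3 of 12 tested genes higher and 3 lower in the blocked fit, 0 in the unblocked fit and a median of -0.10. ADAM10, a sheddase of CD44, was at 8.16 to 12.4 TPM after knockdown and 16.1 to 21.8 TPM in control cells, without overlap (log2 fold change -0.81, limma adjusted p = 0.0723 unblocked and 0.0044 blocked). The gamma-secretase genes went both ways, with PSEN2 at -0.51 and with NCSTN at 0.30 and APH1A at 0.14. SPINT1, an inhibitor of the matriptase family of proteases, was at 0.60. With the block their limma adjusted p lay between 0.0058 and 0.0429. ADAM10 was at -0.40 with the GC-content offset and the block (limma adjusted p = 0.0151), and APH1A at 0.07 (limma adjusted p = 0.179).

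The regulators of AFP and GPC3 gave 4 higher and 0 lower of 12 with the replicate block, 0 without it, and a median of -0.02. FOXA3, HNF4A and CEBPA, hepatocyte transcription factors, had log2 fold changes of 0.58, 0.30 and 0.31, and CEBPB also rose in the blocked fit, by 0.27. Adding the GC-content offset to the block, 2 were higher, FOXA3 (0.46) and HNF4A (0.29), while CEBPA was at 0.16 and CEBPB at 0.11 (limma adjusted p = 0.0652 and 0.212). HNF4A was at 27.0 to 31.3 TPM after knockdown and at 22.9 to 23.7 TPM in control cells, without overlap (limma adjusted p = 0.0949 unblocked and 0.0196 blocked). ZHX2 and ZBTB20, postnatal repressors of AFP, had log2 fold changes of 0.27 and -0.50 and did not pass either fit.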

How the data were processed

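PolyA-Seq was analysed for 3 knockdown and 3 control libraries, grouped by their sample titles. The authors deposited 1 TPM value per gene and library, made after trimming with fastp 0.20.1, alignment to hg38 with HISAT2 2.1.0 and quantification with StringTie 2.0, per the submitters' processing notes. Strand and multimapping settings are not given in the sources used here. The authors' own test, DESeq2, needs counts and was not used.

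The 10 markers, the 7 gene lists and the tests were chosen with earlier results of these data known. The genes named are the 10 markers, in each list up to 3 genes with the largest change in each direction among those under an adjusted p of 0.05 in either fit, and for each marker tested the 2 genes of highest r. A few further list genes were named after their values were seen, and results for some genes are not reported here.

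The 13980 genes averaging 1 TPM or more entered limma 3.58.1 (R 4.3.3, mean-variance trend, log2(TPM + 1), Benjamini-Hochberg adjustment over all of them). For single values, two-sided exact permutation tests compared the difference of group means over every split of the 6 libraries into 3 and 3. The Poisson intervals were computed with scipy 1.17.1. The replicate numbers of the titles were taken to pair the libraries, because the deviations of pairs 1, 2 and 3 correlated at 0.5598, 0.343 and 0.3621 and 6 of 6 libraries correlated best with their own number. These matches are not independent of each other, since deviations cancel out within a group. What the replicate numbers mean is not stated in the titles. Whole reads were recovered from the TPM ratios (tolerance 0.005) for 100% of the 17285 genes above 0 in all 6 libraries, and for 98.3% of genes exactly in a simulation of 16439. They are lower bounds, and a common factor cannot be seen. The fit was tested on simulated data. GENCODE release 29 on GRCh38 supplied coordinates, GC content and coding sequences, matched by symbol to 25655 genes and by older names to 1562 more, and GC trends were removed by loess (span 0.5) on the 94.2% of tested genes with a value. Alternatives were the block, scaling, filter, pseudocount, gene type, the GC-content offset and leaving out libraries. Limma-voom on recovered reads (at least 10 reads in 3 libraries) and leaving out both libraries of replicate 1 were chosen after seeing the data.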

Additional observations from a re-analysis of the deposited data

How the results depend on the processing

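The 30 list genes that the naming rule picked kept their direction in all 536 of their alternative values. The counts below are of genes higher and lower at the adjusted p over all genes (main values 35 and 88), of genes past both the adjusted p and a log2 fold change over 1 (18), of markers higher and lower (0 and 0) and of the 88 list genes higher and lower (0 and 1), and the causes of the moves were not tested.

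The replicate block gave 1390, 3501, 169, 1, 0, 29 and 16, with the pairing correlation of 0.4216 given above, and KRT7 then had an adjusted p of 0.0045 at an unchanged 0.8604. It changed the call of no other marker. Without a filter on low values the counts were 3, 1, 4, 0, 0, 0 and 0 over 25278 genes. A mean of at least 5 TPM gave 83, 238 and 1 marker (KRT7, 0.8604), and 2 list genes lower. A pseudocount of 0.1 gave 30 genes past both thresholds. Upper-quartile scaling gave 1, 1 and 2 and no list gene (0), with CD44 at 0.0072, and trimmed-mean scaling gave 86 and 57, 1 marker and 0 list genes lower, with CD44 at 0.0057 and KRT7 at 0.9501. Protein-coding genes only gave 106, 288, 1 marker (KRT7, 0.8604), 1 list gene higher and 2 lower.

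The GC-content offset gave 2, 2 and 2 and 0 list genes lower, with 2753 genes at an unadjusted p under 0.05, and turned CD44 (0.1046), KRT19 (-0.0489) and SPP1 (0.0354). Adding the replicate block to the offset gave 1501, 1720 and 88, 2 markers higher (AFP, 0.6609, and KRT7, 0.7227), and 27 list genes higher and 8 lower, with CD44 (0.1046), KRT19 (-0.0489) and SPP1 (0.0354) turned as before. Limma-voom gave 193, 259 and 71, 1 marker (KRT7, 1.055), and 2 list genes higher and 2 lower, with CD44 at 0.0034. With the replicate block it gave 2627, 3081 and 353, 1 marker (KRT7, 1.056), and 37 and 15 list genes, with CD44 at 0.0039.

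Leaving out single libraries, the counts ranged from 0 to 649 higher, 0 to 2771 lower and 0 to 453 past both thresholds, 0 to 1 marker in each direction, and 0 to 10 list genes higher and 0 to 12 lower. The fit without knockdown replicate 1 gave the highest count in each case and called KRT7 (0.7415) higher and SPP1 (-0.5768) lower, and the other 5 called 0 genes, although 2161 to 2803 genes had an unadjusted p under 0.05 in them. KRT7 ranged from 0.7415 to 0.9482 and SPP1 from -0.5768 to -0.1446, AFP from 0.0841 to 0.3626, SOX9 from 0.0252 to 0.3248, and KRT19 from -0.0977 to 0.2403, turning without knockdown replicate 2 (-0.0411) and without control replicate 2 (-0.0977). Without both libraries of replicate 1 the counts were 1353, 3538, 285, 1, 1, 27 and 13, with KRT7 at 0.8292, SPP1 at -0.5184 and SOX9 turned to -0.0257. IGF2 kept its direction and stayed above the threshold in all 17 of its alternatives.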

Other observations

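At this depth 3 of the 10 markers could not be compared, since EPCAM had 12 reads in all, GPC3 had 5 and PROM1 had 0. The 52 and 43 reads of KRT19, and the 86 and 57 of AFP, in the knockdown and control groups also leave wide intervals. Each group came from a single line under sorafenib, the gene values do not separate isoforms or the circular RNA, and the siRNA effect cannot be told apart from any other difference between the transfected groups, including the trend with GC content.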
